A study of Mus musculus with 10 samples.

Results

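Type I interferon-stimulated genes are the genes that cells switch on when type I interferons bind their receptor. They were followed here in regulatory T (Treg) cells with and without Fntb, the beta subunit of protein farnesyltransferase. The members are 41 named interferon-stimulated genes outside the IFI200 cluster. A gene was measured where a probe set of the array names it alone, and of several such probe sets the one with the highest mean was used. That gave 36 measured members among the 22180 genes measured in all. Oas1a, Gbp2, Ifi27l2a and Dtx3l appear only on probe sets that name several genes, and Ifi44 on none of the annotated ones, so these 5 have no value here.

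The arrays are 5 WT and 5 Fntb KO samples of CD4+ YFP+ cells, sorted from the spleen and pLN of chimeras. The Fntb KO cells carry the genotype given as Foxp3CreFntbfl/fl, in which Cre is driven from Foxp3, the lineage factor of Treg cells, and removes a floxed Fntb. The labels name the other genotype only as WT, and the sources used here do not give how the chimeras were made, which host cells they kept, or the animals' age. Values are RMA expression values in log2 units, so that 1 unit stands for a 2-fold change, and differences are Fntb KO minus WT throughout. Arrays measured whole samples, so fewer cells that express a gene and less RNA per cell cannot be told apart in any value below.

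Type I interferons bind the receptor chains Ifnar1 and Ifnar2, which activate the kinases Jak1 and Tyk2. The signal passes to transcription factors, Stat2 and Irf9 among them, which bind the interferon-stimulated response element in the promoters of the target genes. The targets include sensors of viral nucleic acid, enzymes and binding proteins that block viral replication, and feedback regulators such as Usp18. T cells also keep a low basal expression of many of these genes without infection.

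The response element's core was searched in RefSeq promoter windows, which run from 250 bases before to 50 bases after an annotated gene start (build GRCm38.p6). The letters were GAAANNGAAA on either strand, and overlapping matches were allowed. A window was given for 27 of the 36 measured members, and 14 of them (51.9%) held the core, against 3.87% of the 16990 genes tested that had a window. A match describes the letters only. Of the 10 members with the smallest unadjusted p, Oas2, Mx1 and Mx2 had no window and were not searched. Among the other members, Usp18, Dhx58, Rtp4, Zbp1, Parp9 and Parp14 had none either. Those of the 10 with a core are Ifit1, Eif2ak2 and Bst2. They are shown because Ifit1 and Eif2ak2 had the lowest p of all members and Bst2 differed the other way. Ifit3 and Isg15 were added after their values were seen, as members with the same core and small differences. Capitals mark the core matches, which in Ifit1 and Ifit3 lie on the opposite strand and so read TTTCNNTTTC. In Bst2 and Isg15 the matches overlap.
Ifit1: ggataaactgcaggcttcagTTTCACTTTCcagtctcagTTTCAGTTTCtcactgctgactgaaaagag
Eif2ak2: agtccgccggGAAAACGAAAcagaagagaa
Bst2: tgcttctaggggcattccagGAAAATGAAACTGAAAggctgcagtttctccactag
Ifit3: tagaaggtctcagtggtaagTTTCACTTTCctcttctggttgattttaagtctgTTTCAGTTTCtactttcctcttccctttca
Isg15: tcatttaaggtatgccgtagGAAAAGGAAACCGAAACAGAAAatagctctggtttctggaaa
The stretches lie at chr19:34640765-34640833 (plus strand), chr17:78882535-78882564 (minus strand), chr8:71537567-71537622 (minus strand), chr19:34583353-34583436 (plus strand) and chr4:156200855-156200916 (minus strand), and each is written along its gene's strand. Those of Ifit1, Bst2, Ifit3 and Isg15 lie before the annotated start of their window, and that of Eif2ak2 lies just after it. The annotated span of Ifit3 begins further upstream, at chr19:34583119, so its stretch lies inside that span. The 14 members with a core had a median difference of 0.08, with 9 above 0, and the 13 members whose window lacked these letters had a median of 0.15, with 8 above 0.

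Most members lay slightly higher in Fntb KO Treg cells, and 1 of them, Eif2ak2, rose past the threshold. Of the 36 measured members, 25 had a positive difference (69.4%) and 11 a negative one, against 52.5% positive over all genes tested. The members' median difference was 0.12 on the log2 scale, against 0.007 over all genes, and without Fntb KO 5 or Fntb KO 1 it was 0.06 or 0.07. Single differences ran from -0.36 in Bst2 to 0.66 in Ifit1. At a limma adjusted p under 0.05 over all genes, 1 member rose (2.78%), where 0.302% of all genes were raised, and 0 fell, where 0.807% were lowered. At an unadjusted p under 0.05, 8 members were higher and 1 was lower, where 4.25% of all genes were higher and 5.01% lower. For 35 of the 36 members the 95% interval of the difference lay within a 2-fold change in either direction, Mx2 being the exception. It included 0 for 27 members. The differences within the members were therefore small, as the plot of differences and intervals by role shows.

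**Figure D1:**
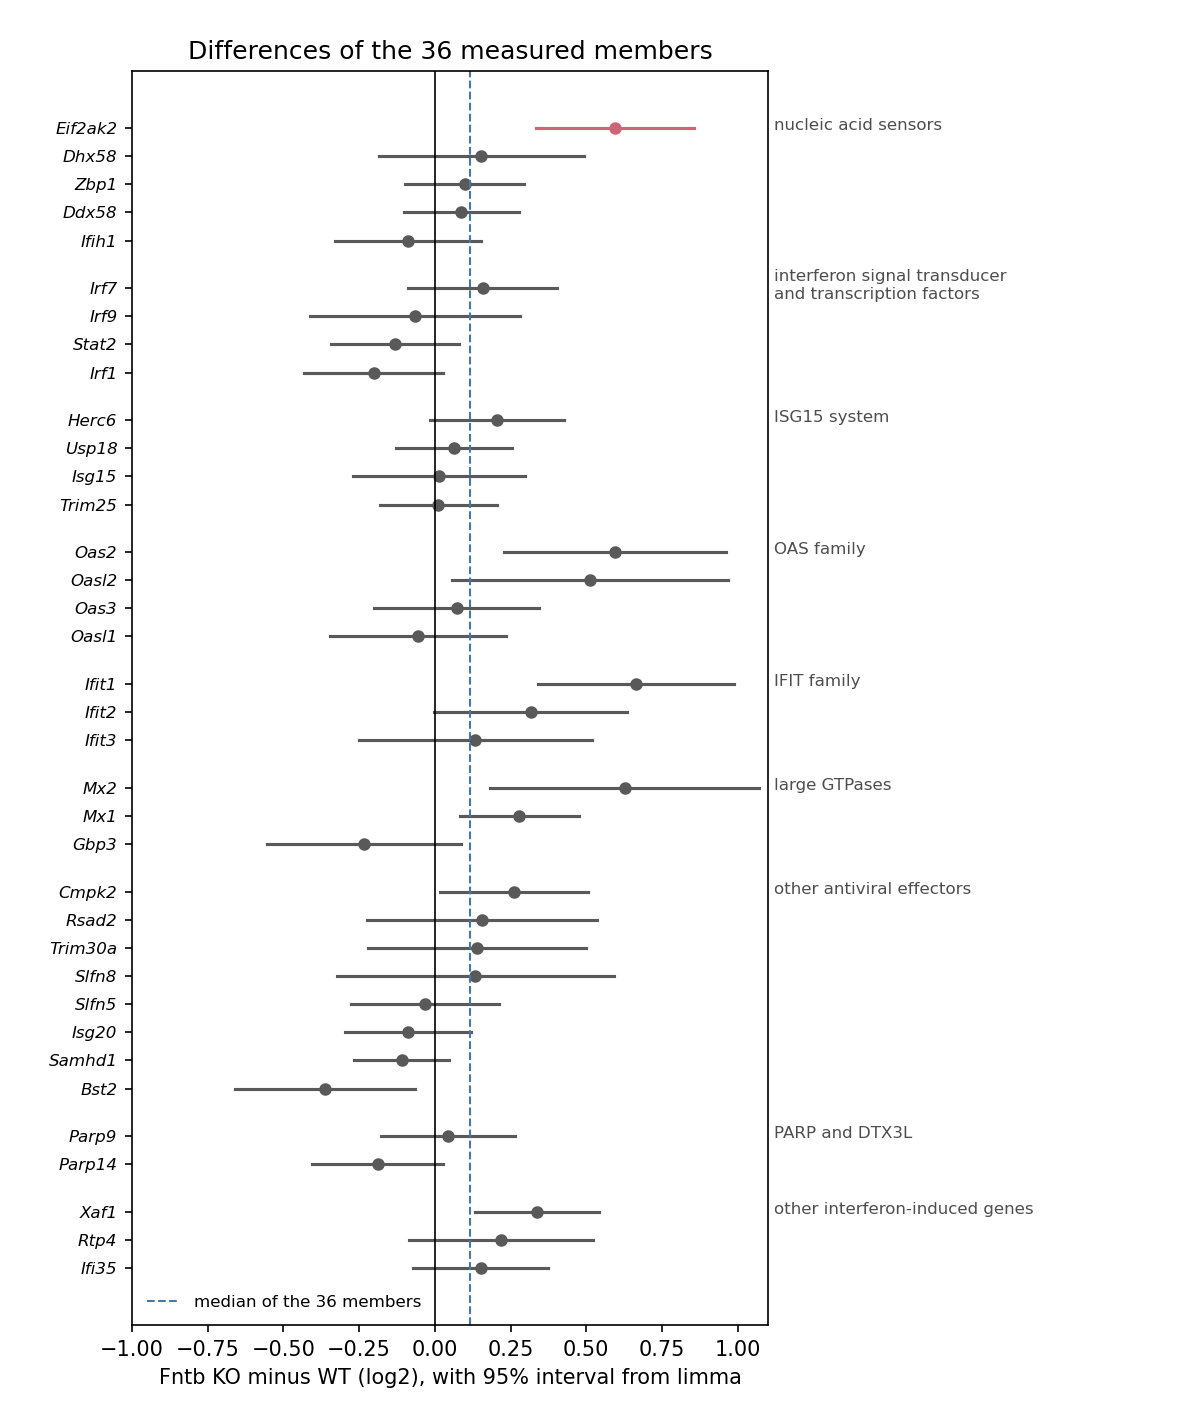
Differences of the 36 measured members, Fntb KO minus WT on the log2 scale (x axis), with the 95% interval from limma as a line, grouped by role. Eif2ak2, in red, is the member past an adjusted p of 0.05, and the dashed line is the members' median of 0.12.

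The members also differed between arrays within a genotype. Over all genes, the medians of WT 2, Fntb KO 1 and Fntb KO 2 were the lowest (4.13, 4.14 and 4.18 log2, against 4.19 to 4.26 in the other 7). In these low-median arrays mitochondrial ribosomal protein genes had a median of up to 7.11, and in the others of at most 6.69. Of the members, 19 were higher and 8 lower in the low-median arrays of both genotypes than in the other arrays, with a median of 0.16 in WT and 0.15 in Fntb KO. Of those arrays 2 are Fntb KO and 1 is WT. The members' median difference within each set was 0.08 in the other 7 arrays and 0.03 in the low-median 3. With a block term for the low-median arrays it was 0.08. The sign was positive in both sets for 16 members, negative in both for 10 and opposite for 10, which the plot of both sets displays.

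**Figure D2:**
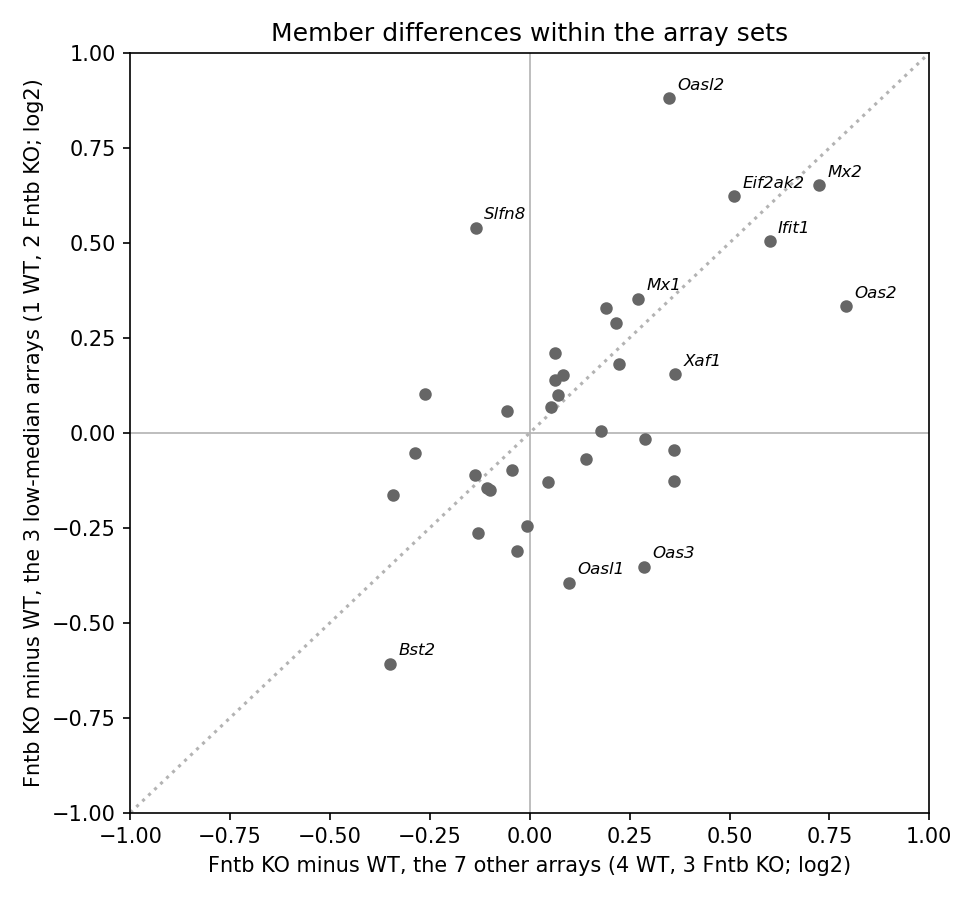
Difference of each of the 36 members (Fntb KO minus WT, log2) in the 7 other arrays (x axis) and in the 3 low-median arrays (y axis), with the dotted line marking equal values. Eif2ak2, Ifit1, Mx1, Mx2, Oas2 and Oasl2 lie to the upper right and Bst2 to the lower left, while Slfn8, Oas3 and Oasl1 lie on opposite sides of 0.

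Relative to the WT mean of each gene, the median over the 36 members was highest in Fntb KO 1 (0.24), followed by Fntb KO 3 and WT 2 (0.13 each). It was -0.04 in Fntb KO 5 and -0.08 in WT 4, the lowest. The genotypes thus overlapped in this summary, and no Fntb KO array was high for every member.

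**Figure D3:**
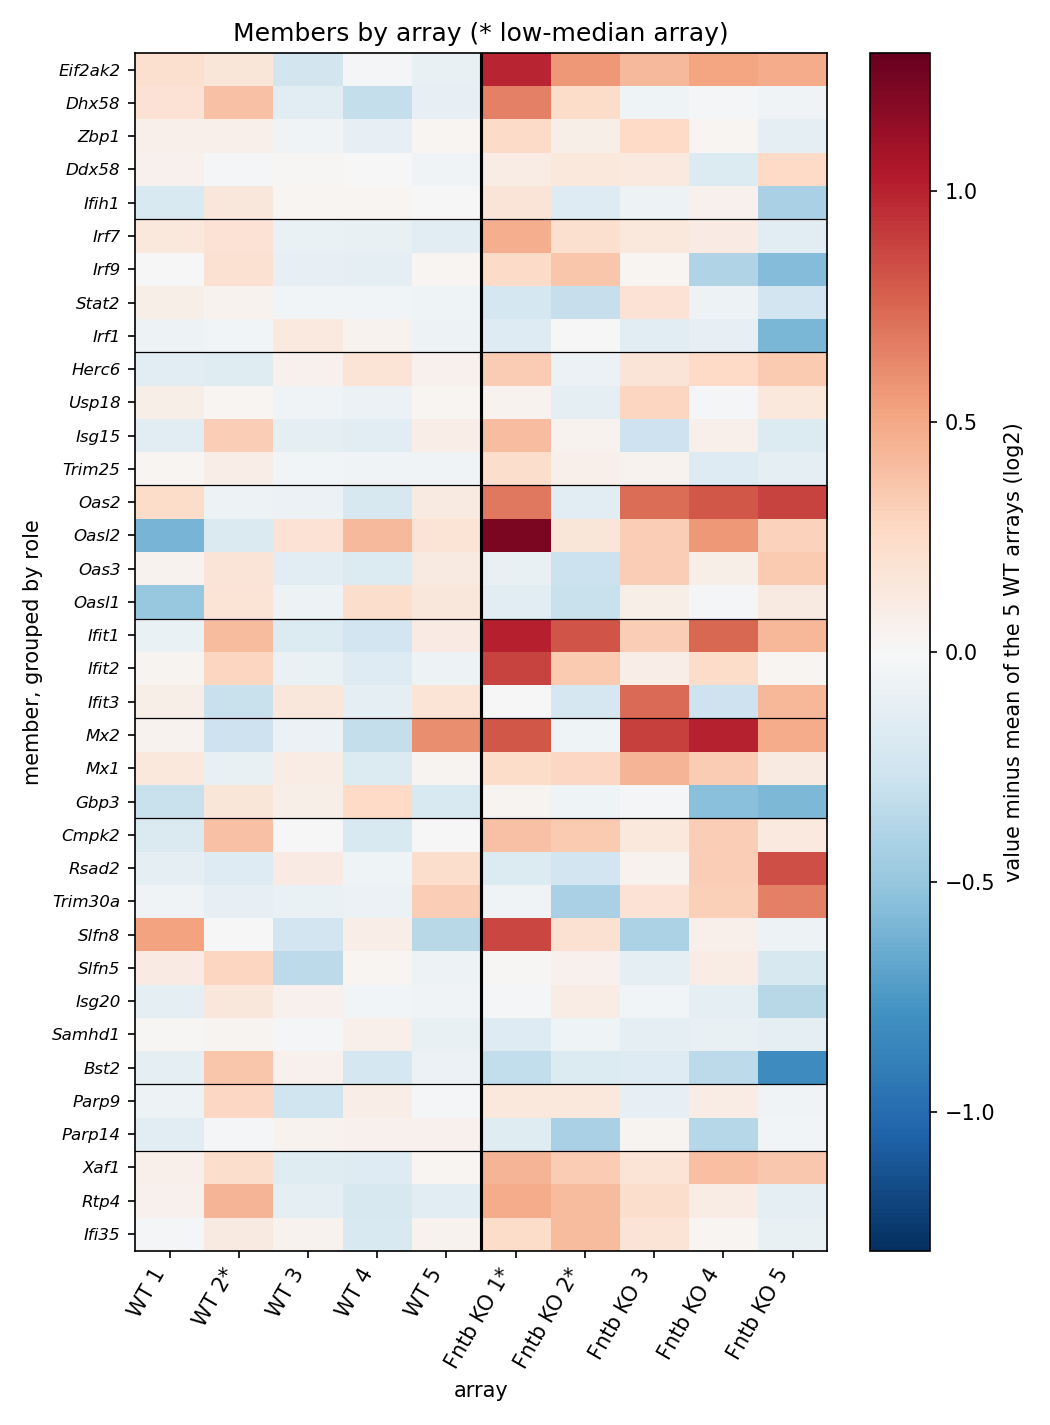
Value of each of the 36 members (rows, grouped by role) in each of the 10 arrays (columns; low-median arrays have an asterisk), minus the mean of the 5 WT arrays on the log2 scale. Red is above and blue below the WT mean: Eif2ak2 is red in all 5 Fntb KO arrays, Oas2 is red in 4 of them and not in Fntb KO 2, and Bst2 is blue in all 5.

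The nucleic acid sensors held the called member. Eif2ak2 encodes the kinase PKR, which binds double-stranded RNA and halts translation by phosphorylating the initiation factor eIF2 alpha. It read 5.43, 5.38, 4.99, 5.19 and 5.13 in WT 1 to 5 and 6.21, 5.79, 5.64, 5.74 and 5.70 in Fntb KO 1 to 5. All 5 Fntb KO arrays lay above all 5 WT arrays, which no other member showed in either direction, where 1.01% of all genes had Fntb KO wholly above WT and 1.65% wholly below. The means were 5.22 ± 0.18 (SD, n = 5) in WT against 5.82 ± 0.23 (SD, n = 5) in Fntb KO, a 1.51-fold rise (difference 0.59, SE 0.121, limma adjusted p 0.0301). Fntb KO 1 was its highest array, and without it the difference was 0.50 (limma adjusted p 0.0468). The call was lost without WT 3, WT 4, WT 5, Fntb KO 2 or Fntb KO 4, one at a time (limma adjusted p 0.0554 to 0.0994), at differences of 0.54 to 0.61. It was also lost without the low-median arrays, where the difference was 0.51 (limma adjusted p 0.0894). Over all alternatives the limma adjusted p of Eif2ak2 ran from 0.0164 to 0.0994, with a positive difference in each.

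The other sensors were close to equal. Zbp1, a sensor of Z-form nucleic acid, read 9.32, 9.32, 9.21, 9.15 and 9.28 in WT 1 to 5 and 9.51, 9.34, 9.52, 9.28 and 9.14 in Fntb KO 1 to 5, and its ranges overlapped (difference 0.10, limma adjusted p 0.837). Without Fntb KO 1 or Fntb KO 3 the difference of Zbp1 was 0.06, and without Fntb KO 5 it was 0.15. Ddx58, which encodes the RNA sensor RIG-I, differed by 0.09 and its regulator Dhx58 by 0.15, while Ifih1, which encodes the sensor MDA5 of long double-stranded RNA, differed by -0.09. None of these 4 passed, and their limma adjusted p ran from 0.837 to 0.898. Dhx58 was higher in the low-median arrays of both genotypes, by 0.47 in WT and 0.49 in Fntb KO.

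The IFIT genes, whose products bind foreign RNA and hinder its translation, form a gene cluster, and their differences were unequal. Ifit1 read 6.17, 6.67, 6.08, 6.01 and 6.37 in WT 1 to 5 and 7.27, 7.07, 6.58, 7.005 and 6.69 in Fntb KO 1 to 5. Fntb KO was above the highest WT array in 4 of 5 arrays, and Fntb KO 3 lay between WT 5 and WT 2. The means were 6.26 ± 0.27 (SD, n = 5) in WT against 6.93 ± 0.28 (SD, n = 5) in Fntb KO, and the difference of 0.66 (95% interval 0.34 to 0.99) had a limma adjusted p of 0.0559, just short of the threshold. WT 2 and both low-median Fntb KO arrays were the highest of their genotype. Within the low-median arrays the difference was 0.50 and within the other 7 it was 0.60. With a block term for the low-median arrays, where 0.419% of all genes were raised, Ifit1 passed (0.57, limma adjusted p 0.0147), as it did without WT 2 (0.77, 0.0255), without Fntb KO 3 (0.75, 0.0388) and with array weights (0.68, 0.0319). It also passed when dimmer genes, those under the median level, were left out (0.0456), where 0.532% of the genes tested were raised. Its limma adjusted p ran from 0.0147 to 0.179 over all alternatives.

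Ifit2 read 6.72, 6.96, 6.59, 6.52 and 6.61 in WT 1 to 5 and 7.56, 7.02, 6.77, 6.92 and 6.71 in Fntb KO 1 to 5. Fntb KO 1 was high, while Fntb KO 3, 4 and 5 lay within the WT range (difference 0.32, 95% interval -0.001 to 0.63, limma adjusted p 0.544). Without Fntb KO 1 the difference of Ifit2 was 0.18, and without the low-median arrays 0.19. Ifit3 read 6.92, 6.55, 6.98, 6.73 and 7.02 in WT 1 to 5 and 6.84, 6.62, 7.58, 6.57 and 7.27 in Fntb KO 1 to 5. It was high in Fntb KO 3 and Fntb KO 5 and lowest in WT 2, so its order of arrays differed from that of Ifit1 and Ifit2. Its difference was 0.13 (limma adjusted p 0.906), and -0.017 without Fntb KO 3. It was 0.06 without WT 2 or Fntb KO 5 and between 0.22 and 0.24 without Fntb KO 2 or Fntb KO 4. Ifit1 and Ifit3 both have the core shown above, Ifit3 with a difference of 0.13 and Ifit1 with 0.66; the difference between the genes was not tested.

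The OAS family makes the short oligoadenylates that activate the RNA-cleaving enzyme RNase L, and its members split. Oas2 read 6.06, 5.76, 5.74, 5.61 and 5.93 in WT 1 to 5 and 6.51, 5.68, 6.55, 6.63 and 6.70 in Fntb KO 1 to 5. Fntb KO lay above every WT array in 4 of 5 arrays, and Fntb KO 2 lay inside the WT range. The means were 5.82 ± 0.18 (SD, n = 5) in WT against 6.41 ± 0.42 (SD, n = 5) in Fntb KO, with a difference of 0.59 (SE 0.170, limma adjusted p 0.173). Fntb KO 2 decided this value: without it the difference was 0.78 and passed (limma adjusted p 0.00337). Oas2 also passed without the low-median arrays (0.79, 0.0191) and with them as a block (0.66, 0.0482), and over all alternatives its limma adjusted p ran from 0.00337 to 0.384.

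Oasl2, a member of the family that carries ubiquitin-like domains, read 4.48, 4.89, 5.27, 5.49 and 5.25 in WT 1 to 5 and 6.30, 5.24, 5.40, 5.64 and 5.37 in Fntb KO 1 to 5. The WT arrays spread widely with WT 1 lowest, and Fntb KO 1 stood above the rest (difference 0.51, SE 0.212, limma adjusted p 0.448). Without Fntb KO 1 the difference of Oasl2 was 0.34. The related gene Oasl1 differed by -0.05 and Oas3 by 0.07, with limma adjusted p of 0.963 and 0.941. In both of these the sign was opposite between the low-median arrays (-0.39 and -0.35) and the other 7 (0.10 and 0.29).

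Among the large GTPases, the Mx genes lay higher in Fntb KO and Gbp3 lower, and none passed. Mx1 and Mx2 encode dynamin-like proteins that block incoming viruses. Mx2 read 4.56, 4.23, 4.43, 4.20 and 5.11 in WT 1 to 5 and 5.32, 4.45, 5.40, 5.50 and 4.99 in Fntb KO 1 to 5. Fntb KO 1, 3 and 4 lay above all WT arrays, but WT 5 was above Fntb KO 2 and Fntb KO 5. The means were 4.51 ± 0.37 (SD, n = 5) in WT against 5.13 ± 0.43 (SD, n = 5) in Fntb KO, with a difference of 0.63 and an interval of 0.18 to 1.07 (limma adjusted p 0.259). Without Fntb KO 2 the difference was 0.80 (limma adjusted p 0.0550) and without WT 5 it was 0.78 (0.106), the range over alternatives being 0.0550 to 0.522.

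Mx1 read 4.36, 4.13, 4.32, 4.05 and 4.26 in WT 1 to 5 and 4.46, 4.49, 4.66, 4.56 and 4.34 in Fntb KO 1 to 5. Its Fntb KO arrays exceeded all WT arrays in 4 of 5, but its level is near that of genes that T cells do not use: the 1105 olfactory receptor genes had a 95th percentile of 4.19. Its difference was 0.28 (limma adjusted p 0.257). Gbp3, a guanylate-binding protein of the response to interferons, read 7.17, 7.62, 7.54, 7.72 and 7.27 in WT 1 to 5 and 7.50, 7.40, 7.44, 6.91 and 6.88 in Fntb KO 1 to 5, low in Fntb KO 4 and Fntb KO 5 (difference -0.23, limma adjusted p 0.711). Without the former the difference was -0.15 and without the latter -0.15.

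The other antiviral effectors had as many positive as negative differences, 4 each, and none passed. Bst2, or tetherin, which holds budding virus at the cell surface, had the lowest difference of all members. It read 7.31, 7.78, 7.47, 7.19 and 7.34 in WT 1 to 5 and 7.10, 7.24, 7.25, 7.08 and 6.60 in Fntb KO 1 to 5. Fntb KO lay below the lowest WT array in 3 of 5 arrays, and Fntb KO 5 was far below the others. The means were 7.42 ± 0.23 (SD, n = 5) in WT against 7.05 ± 0.27 (SD, n = 5) in Fntb KO, with a difference of -0.36 (SE 0.138, limma adjusted p 0.385). Without Fntb KO 5 the difference was -0.25 (limma adjusted p 0.530), in a range of 0.128 to 0.620 over alternatives. Its difference was negative in the low-median arrays (-0.61) and in the other 7 (-0.35).

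Cmpk2, a mitochondrial nucleotide kinase, and Rsad2, or viperin, an enzyme that makes a chain-terminating nucleotide, are neighbouring genes. Cmpk2 read 5.34, 5.91, 5.54, 5.33 and 5.53 in WT 1 to 5 and 5.91, 5.87, 5.67, 5.85 and 5.66 in Fntb KO 1 to 5. WT 2 lay as high as the highest Fntb KO array and the other WT arrays lay below all of Fntb KO (difference 0.26, limma adjusted p 0.486). Rsad2 was below the olfactory percentile in both genotypes, at 3.69 and 3.85, and its difference of 0.16 is one of values near background. Samhd1, which degrades the nucleotides that reverse transcription needs, read 11.27, 11.29, 11.24, 11.32 and 11.16 in WT 1 to 5 and 11.09, 11.20, 11.14, 11.16 and 11.14 in Fntb KO 1 to 5. Its arrays were tight, and the interval of its difference (-0.27 to 0.05) was narrow around -0.11.

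In the remaining effectors, differences ran from -0.09 in the exonuclease Isg20 to 0.14 in Trim30a, with limma adjusted p of 0.868 to 0.974. These were Isg20, Trim30a and the Schlafen genes Slfn5 (-0.03) and Slfn8 (0.13). Trim30a read 6.74, 6.68, 6.71, 6.72 and 7.11 in WT 1 to 5 and 6.74, 6.37, 6.98, 7.11 and 7.45 in Fntb KO 1 to 5, with WT 5 apart from the other WT arrays and Fntb KO 2 the lowest of all. Fntb KO 5 was the lowest Fntb KO array for 14 of the 36 members, Bst2 and Irf1 among them, and Fntb KO 2 for 11, Trim30a, Oas2 and Mx2 among them. Among the WT arrays, WT 4 was the lowest for 17 of the 36, and without it the members' median difference was 0.08.

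The factors that carry the interferon signal were mostly lower in Fntb KO, without a call. Of 4 members, Irf7 differed by 0.16, Irf9 by -0.07, Stat2 by -0.13 and Irf1 by -0.20, with limma adjusted p of 0.622 to 0.963. Irf1, a transcription factor that interferon-gamma induces strongly, read 8.05, 8.08, 8.24, 8.17 and 8.05 in WT 1 to 5 and 7.95, 8.11, 7.98, 8.01 and 7.53 in Fntb KO 1 to 5. Fntb KO 5 was far below the rest, and 4 Fntb KO arrays lay below the lowest WT array. Without Fntb KO 5 the difference of Irf1 was -0.11. Irf9 spread widely in Fntb KO, from 7.21 in Fntb KO 5 to 8.14 in Fntb KO 2, and was higher in the low-median arrays of both genotypes. Irf7, the factor that amplifies interferon production, was likewise higher in those arrays (by 0.23 in WT and 0.30 in Fntb KO).

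The ISG15 system attaches the ubiquitin-like protein Isg15 to other proteins. Isg15 itself differed by 0.014 (95% interval -0.27 to 0.30) and the ligase Trim25 by 0.011 (-0.18 to 0.20). Usp18, which removes Isg15 and blocks the interferon receptor, read 8.25, 8.20, 8.12, 8.09 and 8.20 in WT 1 to 5 and 8.21, 8.04, 8.46, 8.16 and 8.30 in Fntb KO 1 to 5, and its groups overlapped (0.06, limma adjusted p 0.917). Its difference was 0.007 without Fntb KO 3 and 0.11 without Fntb KO 2. The ligase Herc6 differed by 0.21 (limma adjusted p 0.587). Isg15 was higher in the low-median arrays, by 0.40 in WT and 0.35 in Fntb KO, a larger gap than that between the genotypes.

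Parp14, an ADP-ribosyltransferase, read 8.33, 8.44, 8.51, 8.52 and 8.52 in WT 1 to 5 and 8.31, 8.05, 8.50, 8.09 and 8.43 in Fntb KO 1 to 5, with Fntb KO 2 and Fntb KO 4 the lowest (-0.19, limma adjusted p 0.625). Parp9 differed by 0.04. Xaf1, an interferon-induced gene that promotes cell death, read 7.96, 8.12, 7.74, 7.72 and 7.92 in WT 1 to 5 and 8.33, 8.22, 8.07, 8.28 and 8.24 in Fntb KO 1 to 5. Fntb KO lay above the highest WT array, WT 2, in 4 of 5 arrays, and the means were 7.89 ± 0.17 (SD, n = 5) in WT against 8.23 ± 0.10 (SD, n = 5) in Fntb KO. Its difference of 0.34 (SE 0.0950) had a limma adjusted p of 0.161. Ifi35 read 8.21, 8.34, 8.27, 8.03 and 8.27 in WT 1 to 5 and 8.47, 8.64, 8.41, 8.25 and 8.13 in Fntb KO 1 to 5, with a difference of 0.15 and, on its other probe set, of 0.18. Without Fntb KO 2 the difference of Ifi35 was 0.09, and without the low-median arrays 0.06. Rtp4 differed by 0.22, and by 0.55 between the low-median and other WT arrays.

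**Figure D4:**
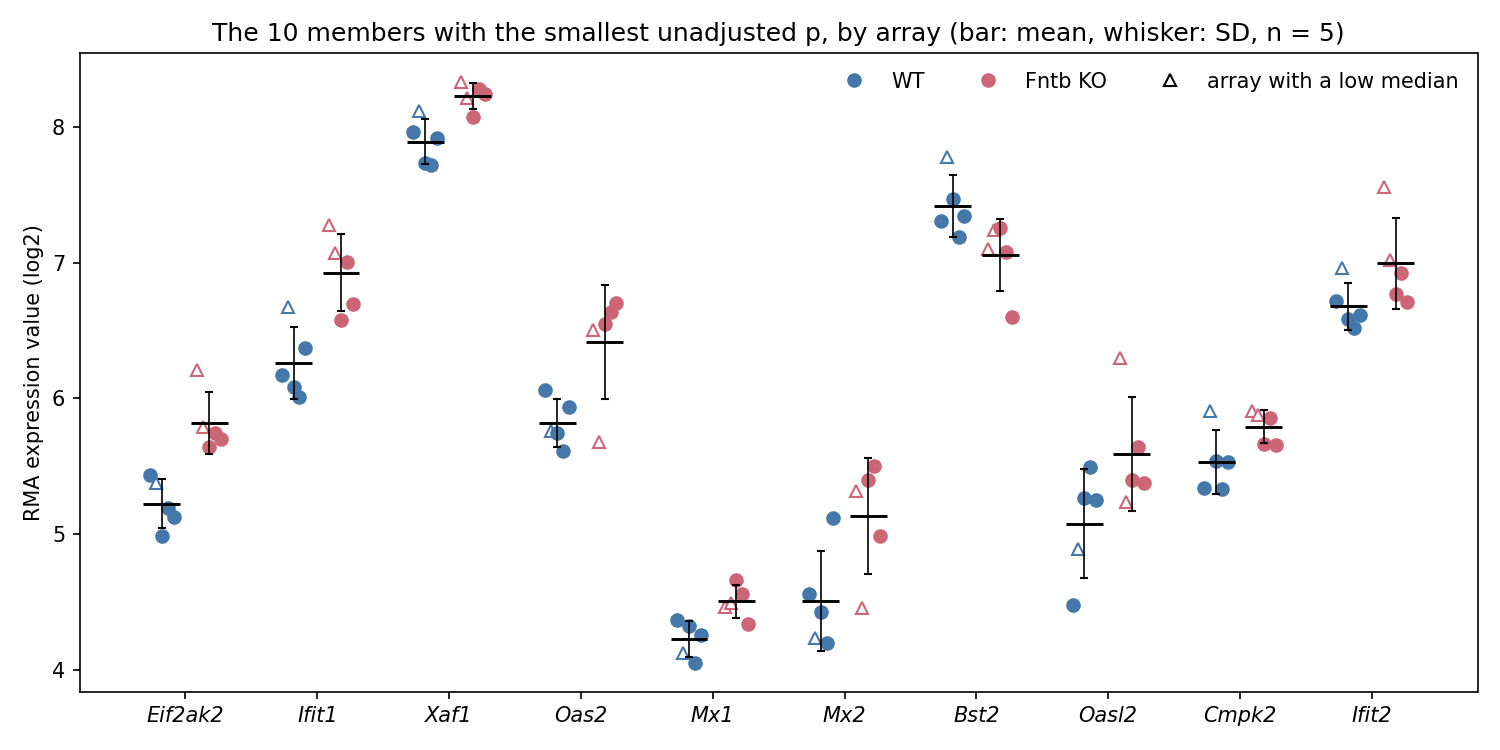
Expression values (log2) in each array for the 10 members with the smallest unadjusted p, WT in blue and Fntb KO in red, with open triangles for low-median arrays, bars for means and whiskers for SD (n = 5). Only for Eif2ak2 do the genotypes not overlap, and Bst2 is the one gene of the 10 that is lower in Fntb KO.

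Genes of the rest of the pathway were counted against the shares over all genes. Of 18 measured genes of type I and III interferons, 10 of receptors, kinases and STATs, 10 of regulators, 10 of upstream sensors and adaptors, 11 of interferon-gamma GTPases and 11 of interferon-induced antigen presentation, 70 in all, 0 passed in either direction with limma, where 0.302% of all genes were raised and 0.807% lowered. At an unadjusted p under 0.05, 2 of the 70 were higher and 3 lower, shares near or below those of all genes (4.25% and 5.01%). The interferon genes had 9 of 18 members below the olfactory percentile in both genotypes. Their largest difference was that of Ifnab (0.21), which was among those 9, at 3.28 in WT and 3.49 in Fntb KO. Others lay well above that percentile, such as Ifnl2 (7.13 in both genotypes) and Ifna4 (6.93 in WT and 6.77 in Fntb KO). Whether a level above the percentile is signal of the gene was not tested. The receptor and STAT list had 9 of 10 members below 0, with a median of -0.10, and the regulators also had 9 of 10, with a median of -0.10. The largest differences in the remaining lists were those of the interferon-gamma receptor chain Ifngr2 (0.24), the transcription factor Irf8 (-0.38), the adaptor Myd88 (-0.39), the GTPase Gbp8 (-0.34) and the peptide transporter Tap2 (0.15). Several of them turned on 1 array. Without Fntb KO 5, Irf8 differed by -0.13 and Myd88 by -0.25. Without Fntb KO 2, Gbp8 differed by -0.22 and Irf8 by -0.59, and without WT 4 Ifnab differed by 0.14. With the mean of its probe sets Irf8 differed by -0.13, and without the low-median arrays Gbp8 differed by -0.12 and Irf8 by -0.62.

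Of 50 further interferon-stimulated genes measured, 0 rose and 2 fell, where 0.302% of all genes were raised and 0.807% lowered, with 25 differences above 0 and a median of 0.03. At an unadjusted p under 0.05, 6 were higher (Parp11, Trim12a, Ifitm3, Uba7, Oas1c and Tor3a, by 0.21 to 0.50, with limma adjusted p from 0.0994 to 0.513) and 2 were lower, the 2 that fell. Over all genes, 4.25% were higher and 5.01% lower at that unadjusted threshold. Cxcl10, a chemokine that interferon-gamma and type I interferon induce, read 5.16, 5.14, 5.81, 4.80 and 5.01 in WT 1 to 5 and 3.89, 4.08, 4.31, 4.36 and 4.03 in Fntb KO 1 to 5. All Fntb KO arrays lay below all WT arrays, and the mean fell from 5.18 ± 0.38 to 4.13 ± 0.19 (log2, SD, n = 5 each, limma adjusted p 0.00565), the difference being -1.05. In 3 of the 5 Fntb KO arrays Cxcl10 was below the olfactory percentile. With these set to that percentile the means differed 1.91-fold, an estimate and not a lower limit. Without WT 3 the difference was -0.89. Without the low-median arrays Cxcl10 did not pass (-0.96, limma adjusted p 0.0705), and it passed in every other alternative. Epsti1, another interferon-induced gene, read 8.53, 8.68, 8.75, 8.71 and 8.77 in WT 1 to 5 and 8.19, 8.13, 8.46, 8.22 and 8.28 in Fntb KO 1 to 5, again without overlap. It fell by 0.43 on the log2 scale (limma adjusted p 0.0290). Its call was lost without any 1 of 8 arrays (limma adjusted p up to 0.0952; all but WT 1 and Fntb KO 3), without the low-median arrays (0.192) and after another quantile normalization (0.0815), at differences of -0.44 to -0.37.

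The labels were checked on the targeted gene and on markers. Fntb ran from 5.98 to 6.35 in WT and from 5.31 to 5.62 in Fntb KO, a difference of -0.65, lower in 5 of 5 arrays (limma adjusted p 0.00442; exact two-sided permutation p 0.00794, the smallest that 5 against 5 arrays allow); where its probe set lies against the deleted part was not examined. The Treg factor Foxp3 was 10.63 to 10.70 in WT and 10.48 to 10.62 in Fntb KO, lower in all 5 (difference -0.14). The same exact test gave a two-sided permutation p of 0.00794, which is not adjusted over genes. The limma p of Foxp3 was 0.0705 unadjusted and 0.601 adjusted. The Treg list of 4 markers had 3 below 0 and a median difference of -0.26, with Ikzf2 at -0.41, Ctla4 at -0.39 and Il2ra at 0.05 (limma adjusted p 0.236, 0.0778 and 0.936). Its summed level was 12.17 to 12.34 in WT and 11.97 to 12.17 in Fntb KO (log2 of the sum). The T cell list had 7 of 8 below 0 and a median of -0.09, with Zap70 lowest at -0.36 (limma adjusted p 0.295), at 13.52 to 13.75 in WT and 13.35 to 13.68 in Fntb KO. In both lists 0 passed with limma. Ikzf2, Ctla4 and Zap70 had an unadjusted p under 0.05, where 5.01% of all genes were lower.

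Of the markers of other cells, all 6 measured neutrophil markers had a positive difference and 0 passed, with a median of 0.10. Their summed level was 6.28 to 6.51 in WT and 6.18 to 7.75 in Fntb KO (log2 of the sum). S100a8 was high in Fntb KO 3 (6.25) and Fntb KO 1 (5.27), against 3.34 to 3.98 in WT, while Ly6g, Camp and Ngp were below the olfactory percentile in both genotypes. The 5 conventional dendritic cell markers were also all above 0, with a median of 0.13. Of these, 3 lay below the olfactory percentile in both genotypes, and Itgax and Zbtb46 differed by only 0.02 and 0.009. Plasmacytoid dendritic cells, a main source of type I interferon that also carry Bst2, had 7 measured markers with 0 passing and 2 positive, at a summed level of 8.18 to 8.60 in WT and 8.06 to 8.74 in Fntb KO, and their marker Siglech differed by -0.08. At an unadjusted p under 0.05 their Ly6d was higher, by 0.41, and their Ptprs lower, at -0.27 (limma adjusted p 0.374 and 0.494), and of the neutrophil markers S100a8 was higher, by 1.05 (0.321). Over all genes, 4.25% were higher and 5.01% lower at that unadjusted threshold. In the B cell, CD8 T or NK cell, monocyte or macrophage, conventional dendritic cell and erythroid lists 0 markers passed with limma, and 1, Cd79b of the B cell list (-0.41), had an unadjusted p under 0.05. Only 1 of the 6 erythroid genes, Car1, was measured, and it lay below the olfactory percentile in both genotypes. So did 5 of the 6 CD8 T or NK cell markers, so these 2 lists say little about such cells. The part of these differences and of such cells in the members' values was not tested.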

How the data were processed

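Expression was measured on 10 one-colour Affymetrix arrays. The deposited values were made by RMA in Affymetrix Expression Console 1.1, per the submitters' processing notes, and are therefore on the log2 scale after background correction, quantile normalization and probe set summary. Per the labels' protocols, total RNA was column-purified, amplified and biotin-labelled with NuGEN kits. Both deposited tables hold identical log2 values (largest difference 0), and all their columns were used. Of 41345 probe sets, 25341 are annotated, 23521 with 1 gene symbol and 1820 with several. The 22180 genes, by the probe set with the highest mean, were fitted in limma 3.58.1 (R 4.3.3; lmFit, eBayes, no covariate), with Benjamini-Hochberg adjustment over all of them and a threshold of 0.05. The fit was tested on simulated data first, where recovery was required only for differences of 2-fold or more. All member differences were smaller than that. Replicate numbers follow accession order and pair nothing; no label says whether the samples came from separate animals, and p-values then measure only a spread between samples that may be technical. The number of arrays limits the precision, and no detection calls were used.

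The members, their role lists, the pathway and marker lists and the alternatives were chosen with earlier results of these data known. Named are members past the threshold, the 10 with the smallest unadjusted p, the member with the highest mean in each role list, other members by difference only, pathway genes past the threshold or else the largest in each list, and Fntb and Foxp3. Other pathway, marker and array values were chosen after being seen. Gene names and promoter windows are those of RefSeq GRCm38.p6, and no genome build is named for the arrays.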

Additional observations from a re-analysis of the deposited data

Results flagged for a closer look

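In 6 cases, 5 of them members, 1 array lay far from the other 4 of its genotype by Dixon's test at its 95% critical value (log2 values). Chance alone gives such a gap in about 1 of 20 groups, and 92 groups were screened. The low ones were Oas2 in Fntb KO 2 (5.68, the others 6.51 to 6.70), Irf1 in Fntb KO 5 (7.53, the others 7.95 to 8.11), Bst2 in Fntb KO 5 (6.60, the others 7.08 to 7.25) and Ifngr2 in WT 3 (7.54, the others 7.81 to 7.91). The high ones were Eif2ak2 in Fntb KO 1 (6.21, the others 5.64 to 5.79) and Trim30a in WT 5 (7.11, the others 6.68 to 6.74). The differences of Oas2, Irf1, Bst2 and Eif2ak2 without the array in question were 0.78, -0.11, -0.25 and 0.50.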

How the results depend on the processing

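The count of members raised, 1 with all arrays, was 2 after another quantile normalization, 2 without genes under the median level, 2 with array weights (Eif2ak2 and Ifit1 each time) and 3 with a block term for the low-median arrays (Oas2 added), where 0.419% of all genes were raised. Without the low-median arrays it was 1, but that gene was Oas2. It ranged from 0 to 2 when 1 array at a time was left out: 0 without WT 3, WT 4, WT 5 or Fntb KO 4, and 2 without WT 2 or Fntb KO 3. No member was lowered under any alternative. The members' median difference was 0.06 to 0.12 without 1 array and 0.08 to 0.14 under the other 8 alternatives. It was lowest without Fntb KO 5, and without Fntb KO 1 it was 0.07. The difference of Fntb stayed between -0.68 and -0.59 and past the threshold in all 18. Ifit3 changed sign without Fntb KO 3; its difference ran from -0.017 to 0.24 over the fits without 1 array, and of the members, Isg15, Trim25, Irf9, Oasl1, Rsad2, Parp9, Slfn5 and Slfn8 also changed sign under 1 or more alternatives, their differences with all arrays being at most 0.16 in size. The other 27 members kept their sign in all of them, but not every alternative could change a sign. The other deposited table held identical values. Trend and robust settings of eBayes, or leaving out genes under the median level, left each gene's difference as it was. Averaging probe sets could alter only Ifi35 among the members. The cause of the changes in count, median and sign was not tested. No paired analysis was possible because the labels give no replicate numbers. Signal limits Rsad2, which lay near background in both genotypes. It also limits Mx1, whose WT mean of 4.22 lay just above the olfactory percentile of 4.19, with WT 2 and WT 4 below it. For Mx2, WT 2 (4.23) and WT 4 (4.20) lay close to that percentile.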
